A study of Homo sapiens with 4 samples.

Results

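The genes described here are 10 genes of antigen presentation, namely CIITA, CD74, HLA-DRA, HLA-DPA1, HLA-DPB1, HLA-DMA, HLA-DMB, B2M, TAP1 and TAP2. Every probe set whose platform annotation gave 1 of these symbols alone was taken, which yielded 50 of 49293 tested probe sets and 10 of 18244 genes. The rule uses the annotation and no signal values. The RNA came from SeAx, an established cell line derived from Sézary syndrome, the leukemic form of cutaneous T-cell lymphoma (CTCL). It was hybridized to 4 Affymetrix PrimeView arrays, 2 of cells labelled miR124 and 2 of cells labelled Control. By the methods, the miR-124 cells were transduced with a lentiviral vector encoding miR-124 and selected with puromycin, whereas the text calls the control cells non-transduced and the labels say only that they are controls, so the vector, its selection and miR-124 itself cannot be told apart. Whether separate cultures stand behind the arrays of a condition is not stated in the sources used here, so the spread between arrays, and each p drawn from it, may be technical.

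MHC class II molecules present peptides from endocytosed proteins to CD4+ T cells. They are made mainly by B cells, dendritic cells and macrophages, and human T cells also make them once activated. The transactivator CIITA, itself induced by interferon gamma, binds no DNA and is recruited to a promoter module of W/S, X and Y boxes held by RFX, CREB and NF-Y. The class II alpha and beta chains assemble on the invariant chain CD74, and HLA-DM later exchanges its remnant for peptide. In the class I pathway, TAP1 and TAP2 carry cytosolic peptides into the endoplasmic reticulum, where they are loaded onto class I heavy chains paired with B2M.

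The promoters of these genes were searched for elements of that module, of which the W/S box was left out. RefSeq sequences of GRCh38.p14 were used for 8 of the 10 genes, with 2 starts each for HLA-DPA1 and TAP1. The reference held no promoter of HLA-DRA or CIITA, so these genes were not searched. The 250 bases before each transcription start were searched on both strands for 3 motifs. These were the X box, by a consensus with several ambiguous letters, the Y box as ATTGG, which is the CCAAT element of NF-Y, and the interferon-stimulated response element (ISRE) as GAAANNGAA. The X box occurred in 2.2% of 35116 promoters of the same length, the Y box in 32.0% and the ISRE in 6.88%. An X box with 23 to 25 bases between it and a Y box occurred in 7 promoters (0.0199%), those of HLA-DMA, HLA-DOA, HLA-DOB, HLA-DQA1, HLA-DQB1, HLA-DRB1 and HLA-DRB5. The consensus and the spacing were chosen with these promoters in view, so their selectivity is a description and not a test.

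Stretches of 51 bases that start just before the X box are given below, 5′ to 3′ on the coding strand, with matches to the X and Y boxes in capitals, because they set class II genes whose signal stood above the array background beside others whose signal did not. The HLA-DPA1 stretch lies at chr6:33073706-33073756 (minus strand), HLA-DMB at chr6:32941074-32941124 (minus), HLA-DMA at chr6:32953168-32953218 (minus), HLA-DOA at chr6:33009650-33009700 (minus), HLA-DRB1 at chr6:32589885-32589935 (minus) and HLA-DQA1 at chr6:32637296-32637346 (plus).
HLA-DPA1: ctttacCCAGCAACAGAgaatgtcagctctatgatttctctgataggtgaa
HLA-DMB: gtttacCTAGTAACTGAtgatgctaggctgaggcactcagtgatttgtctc
HLA-DMA: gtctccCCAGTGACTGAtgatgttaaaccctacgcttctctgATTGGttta
HLA-DOA: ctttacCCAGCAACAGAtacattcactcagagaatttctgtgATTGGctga
HLA-DRB1: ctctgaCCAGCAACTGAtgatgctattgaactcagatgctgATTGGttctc
HLA-DQA1: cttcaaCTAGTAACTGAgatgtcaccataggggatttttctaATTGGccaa

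The X box of HLA-DPA1 has the same letters as that of HLA-DOA, and the X box of HLA-DMB the same as that of HLA-DQA1. The promoters of HLA-DPA1 and HLA-DMB held no ATTGG at this spacing, those of HLA-DPB1 and CD74 held the Y box letters and no X box in the form searched, and a missing match says only that these letters are not in the window. The ISRE occurred in the promoters of the class I members B2M, TAP1 and TAP2 and also in those of CD74, HLA-DPA1 and HLA-DMB. Among the other class II promoters searched, those of HLA-DRB1 and HLA-DRB5 held it as well. The other start of TAP1 and that of HLA-DPA1 held none of the 3 motifs. The stretches of the class I members, shown because interferon gamma acts on class I genes through this element, lie at chr15:44711367-44711393 (plus strand) for B2M, at chr6:32853817-32853843 (minus) for TAP1 and at chr6:32838783-32838803 (minus) for TAP2, with the ISRE on either strand in capitals, and B2M and TAP1 each hold 2 overlapping matches.
B2M: ctctaaGAAAAGGAAACTGAAaacggg
TAP1: gccgctTTCGATTTCGCTTTCccctaa
TAP2: ggaagcGAAAGCGAAagctgc

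SeAx cells gave a signal above the array background for CIITA, CD74, HLA-DP, HLA-DM, B2M and both TAP subunits on all 4 arrays. This held for at least 1 probe set of each gene, whereas all HLA-DRA probe sets lay within the background. Signal is the RMA value of a probe set, the log2 of its summarized probe intensity after quantile normalization. The array holds 23 background probe sets, whose probes of 25 bases have 3 to 25 G or C bases, and these had signals of 2.97 to 9.64, with a mean of 5.18 to 5.23 per array. The top of this range came from the probe set with 25 G or C bases (9.54 to 9.64), and all others read at most 8.89. Exceeding every background probe set is thus a strict cutoff, and failing it does not show that a gene is silent. Of the 50 member probe sets, 36 (72.0%) exceeded every background probe set on all 4 arrays, against 19.1% of all tested probe sets. The remainder comprised 13 that did not exceed them on any array and 1 CIITA probe set that exceeded them on 2. Probes of different sequence bind with different strength, so no size of a difference in level between genes is read from the signals. The brightest probe set of a gene, the one with the highest mean, is used to choose what is shown and is set against the background only.

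**Figure D1:**
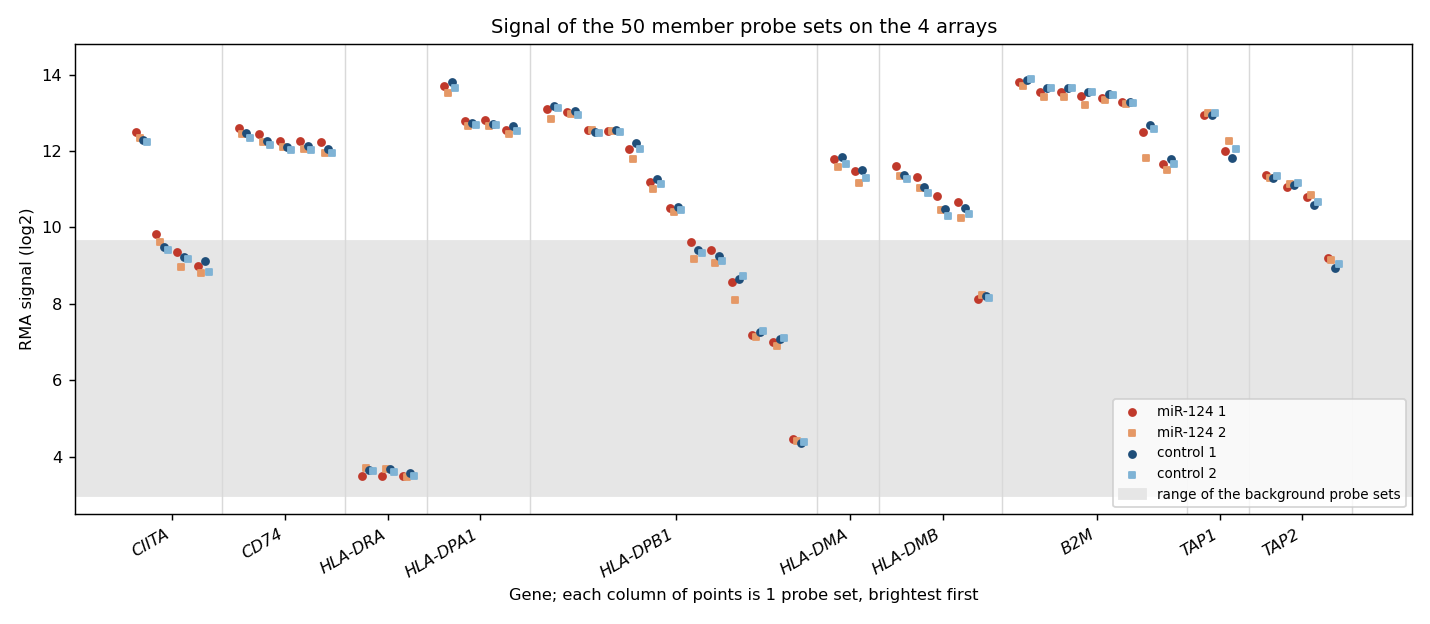
RMA signal (log2, vertical axis) of each of the 50 member probe sets on the miR-124 (red and orange) and control (dark and light blue) arrays, grouped by gene and ordered by brightness, with the range of the background probe sets (2.97 to 9.64) in gray. The 4 arrays lie close together in most probe sets, and the 3 HLA-DRA probe sets lie between 3.48 and 3.69.

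None of the 10 genes differed between miR-124 and control cells at the threshold of the study, an unadjusted p under 0.05 with a fold change above 1.5. With limma across all probe sets, 0 of the 50 member probe sets passed it, against 0.185% of all tested probe sets, a background at which fewer than 1 of 50 would be called. An unadjusted p under 0.05 alone was reached by 0 of the 50, against 4.73%. The lowest unadjusted p was 0.058 and the lowest Benjamini-Hochberg adjusted p 0.875, both from limma. At an adjusted p of 0.05, limma called 0 of the 49293 probe sets. With 2 arrays against 2, an exact permutation test of a single probe set cannot give a two-sided p below 0.333, and precision is limited throughout by the number of arrays.

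The sizes of the differences were small. The log2 difference, miR-124 minus control, ranged from -0.47 to 0.27 over the 50 probe sets, with a median of -0.02 against 0.00 over all probe sets. Of the 50, 22 were higher and 28 lower in miR-124 cells. Both miR-124 arrays lay above both control arrays in 7 (14%), against 18.8% of all probe sets. They lay below both in 11 (22%), against 15.9%, and these shares are close to the background. The 11 were all of B2M (6 of its 8) or HLA-DPB1 (5 of its 13), and probe sets of 1 gene are not independent. The 95% confidence interval from limma, on 4.56 degrees of freedom, lay within a 1.5-fold difference either way for 47 of 50 (94.0%), against 78.9% of all probe sets. The exceptions were 1 probe set each of HLA-DPB1, HLA-DMB and B2M, and the interval of the B2M one also reached past a 2-fold difference. The 47 include all 3 HLA-DRA probe sets and others within the background range, where a narrow interval does not bound a change of the gene.

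**Figure D2:**
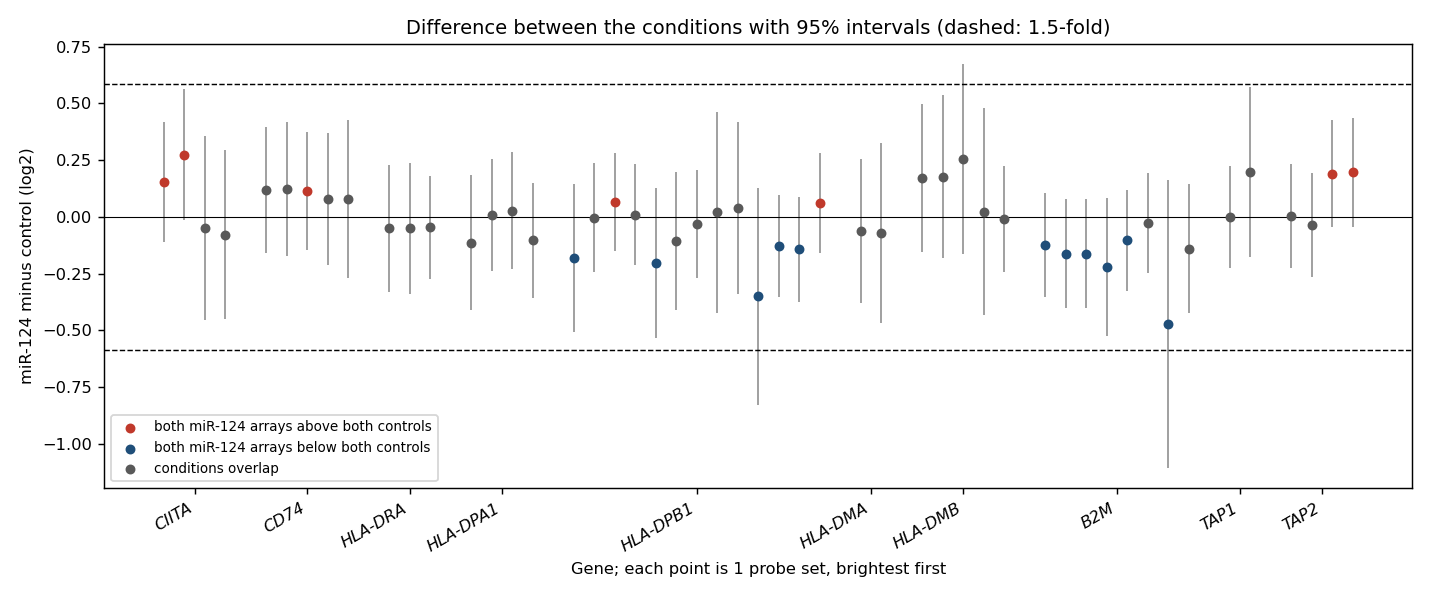
Difference in signal, miR-124 minus control (log2, vertical axis), for each member probe set, grouped by gene, with the 95% confidence interval from limma as bars and the 1.5-fold threshold as dashed lines. Colors mark the 7 probe sets with both miR-124 arrays above both controls (red) and the 11 with both below (blue), and every point lies between -0.47 and 0.27.

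CIITA, the master regulator of class II transcription, exceeded the background on all 4 arrays in 1 of its 4 probe sets. Its brightest probe set had signals of 12.50 and 12.33 in miR-124 cells, against 12.29 and 12.25 in control cells. Both miR-124 arrays thus lay above both controls, but the difference of 0.15 (95% interval -0.11 to 0.42) did not pass the test (limma, unadjusted p = 0.19). The next probe set had 9.83 and 9.62 in miR-124 cells, against 9.49 and 9.41 in control cells, a difference of 0.27 with a standard error of 0.11 (limma, unadjusted p = 0.058). This was the largest positive difference and the lowest p among all member probe sets. The probe set lay at the edge of the background, above every background probe set on the miR-124 arrays and within their range on the control arrays. The other CIITA probe sets lay within the range of the background probe sets and were slightly lower in miR-124 cells, with differences of -0.05 and -0.08, so the 4 probe sets did not share a direction.

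CD74, the invariant chain that guides class II molecules to the endosome, was bright on all 5 of its probe sets. The brightest had signals of 12.59 and 12.44 in miR-124 cells, against 12.47 and 12.33 in control cells. All 5 probe sets had positive differences, between 0.08 and 0.12. In only 1 did both miR-124 arrays exceed both controls, against 18.8% of all probe sets. The lowest unadjusted p among the 5 was 0.30 (limma), and their intervals ran from -0.27 to 0.43. Probe sets of 1 gene read the same transcripts and are not independent of each other.

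HLA-DRA encodes the alpha chain shared by all HLA-DR molecules and varies little between people. Its brightest probe set had signals of 3.49 and 3.69 in miR-124 cells, against 3.66 and 3.63 in control cells. The others had 3.48 and 3.69 in miR-124 cells, against 3.67 and 3.60 in control cells, and 3.49 and 3.48 in miR-124 cells, against 3.57 and 3.49 in control cells. All 12 values lay below the mean of the background probe sets and below the background probe set with 13 G or C bases of 25 (3.75 to 3.83), and the conditions overlapped on each probe set. A fold change of HLA-DRA is therefore not interpretable from these arrays.

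HLA-DPA1, the alpha chain of HLA-DP, lay above the background, in contrast to HLA-DRA. Its brightest probe set had signals of 13.71 and 13.52 in miR-124 cells, against 13.80 and 13.66 in control cells. The conditions overlapped, and the difference was -0.11 with an interval of -0.41 to 0.18. All 4 probe sets exceeded the background on every array, 2 were higher and 2 lower in miR-124 cells, and the lowest unadjusted p was 0.33 (limma).

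HLA-DPB1, the partner chain of HLA-DPA1, was represented by 13 probe sets whose signals spanned 4.37 to 13.2. Of these, 7 exceeded the background on all arrays and 6 on none, which shows how far the reading of 1 gene depends on the probe set. The brightest had 13.10 and 12.83 in miR-124 cells, against 13.17 and 13.12 in control cells, a difference of -0.18 (limma, unadjusted p = 0.21) in which both miR-124 arrays lay below both controls. The widest interval belonged to a dim probe set with 8.58 and 8.10 in miR-124 cells, against 8.64 and 8.74 in control cells. Its difference of -0.35 (interval -0.83 to 0.13) did not pass the test (limma, unadjusted p = 0.12) and the second miR-124 array minus the first was -0.48. Over the 13 probe sets, 5 were higher and 8 lower in miR-124 cells, with a median difference of -0.03.

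HLA-DMA and HLA-DMB form HLA-DM, the catalyst of peptide exchange on class II molecules. The brightest HLA-DMA probe set had signals of 11.78 and 11.58 in miR-124 cells, against 11.83 and 11.66 in control cells, and its 2 probe sets had differences of -0.06 and -0.07. The brightest HLA-DMB probe set had 11.61 and 11.35 in miR-124 cells, against 11.36 and 11.26 in control cells, a difference of 0.17 (limma, unadjusted p = 0.23). The chains of this heterodimer thus had differences of opposite sign. Those of HLA-DMA were smaller than the gap between the arrays of either condition. On the brightest HLA-DMB probe set, the second array minus the first was -0.26 in miR-124 cells and -0.11 in control cells. Its difference of 0.17 was thus larger in size than the control gap only. The largest HLA-DMB difference was 0.25, on a probe set with 10.82 and 10.46 in miR-124 cells, against 10.49 and 10.29 in control cells, where the conditions overlapped. Its interval of -0.16 to 0.67 extended past 1.5-fold, and all other HLA-DM probe sets had intervals within it.

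B2M, the light chain of every classical class I molecule, was bright on all 8 of its probe sets. Each was lower in miR-124 cells, with a median difference of -0.15. Against 15.9% of all probe sets, both miR-124 arrays lay below both controls in 6 of the 8. The brightest had signals of 13.80 and 13.71 in miR-124 cells, against 13.87 and 13.89 in control cells, a difference of -0.12 with an interval of -0.35 to 0.11. The lowest unadjusted p was 0.11 (limma), so no probe set passed. Of the 8, 2 held identical values and count as 1 measurement, and both are among the 6.

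The largest B2M difference, and the largest of any member, lay in 1 probe set and 1 array. This probe set had 12.49 and 11.81 in miR-124 cells, against 12.68 and 12.57 in control cells. The difference of -0.47 (standard error 0.24, interval -1.11 to 0.16) rested mostly on the second miR-124 array, and the second minus the first was -0.67. Without the first miR-124 array, the difference was -0.81 and passed the threshold (limma, unadjusted p = 0.0032). In that setting the dim HLA-DPB1 probe set also passed, with a difference of -0.59 (limma, unadjusted p = 0.0085), and 2.19% of all probe sets did. With all arrays, the other 7 B2M probe sets had differences between -0.22 and -0.03.

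TAP1 and TAP2, the subunits of the peptide transporter, had brightest probe sets that hardly differed. For TAP1 the signals were 12.94 and 12.99 in miR-124 cells, against 12.94 and 13.00 in control cells, and the interval of the difference was -0.23 to 0.23. For TAP2 they were 11.36 and 11.29 in miR-124 cells, against 11.29 and 11.35 in control cells, and the interval was likewise -0.23 to 0.23. The conditions overlapped in both genes.

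Other probe sets of the transporter genes had positive differences that did not pass the test. The other TAP1 probe set had 12.00 and 12.25 in miR-124 cells, against 11.81 and 12.05 in control cells, a difference of 0.20 (limma, unadjusted p = 0.23). Against 18.8% of all probe sets, both miR-124 arrays exceeded both controls in 2 of the 4 TAP2 probe sets. One had 10.80 and 10.84 in miR-124 cells, against 10.58 and 10.68 in control cells, a difference of 0.19 (limma, unadjusted p = 0.089). The other, within the range of the background probe sets, had 9.20 and 9.15 in miR-124 cells, against 8.93 and 9.04 in control cells, a difference of 0.20 (limma, unadjusted p = 0.088). A probe set annotated to both HLA-DOB and TAP2 and another annotated to both HLA-DQA1 and HLA-DRA belong to no single gene and are not counted among the 50.

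The contrast between HLA-DRA and HLA-DP followed the order of the genes along chromosome 6. On the current RefSeq gene order, 19 genes with a probe set lie between BTNL2 and HLA-DPB1. The first 7 were BTNL2, HLA-DRA, HLA-DRB5, HLA-DRB1, HLA-DQA1, HLA-DQB1 and HLA-DQA2. Their 22 probe sets with 1 symbol had signals of 3.26 to 6.53, and 0 exceeded the background probe sets on any array. A probe set left out because its annotation repeats the HLA-DQB1 symbol read 7.18 to 7.35, also within the background. From HLA-DOB to HLA-DPB1, each gene had at least 1 probe set above the background on all 4 arrays, except the pseudogene PPP1R2P1 (mean of 4.52). The HLA-DO, HLA-DM and HLA-DP genes together had 22 of 31 probe sets above it. This run of 7 genes and the point where it ends were noticed after the values were seen, and both conditions showed it alike.

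**Figure D3:**
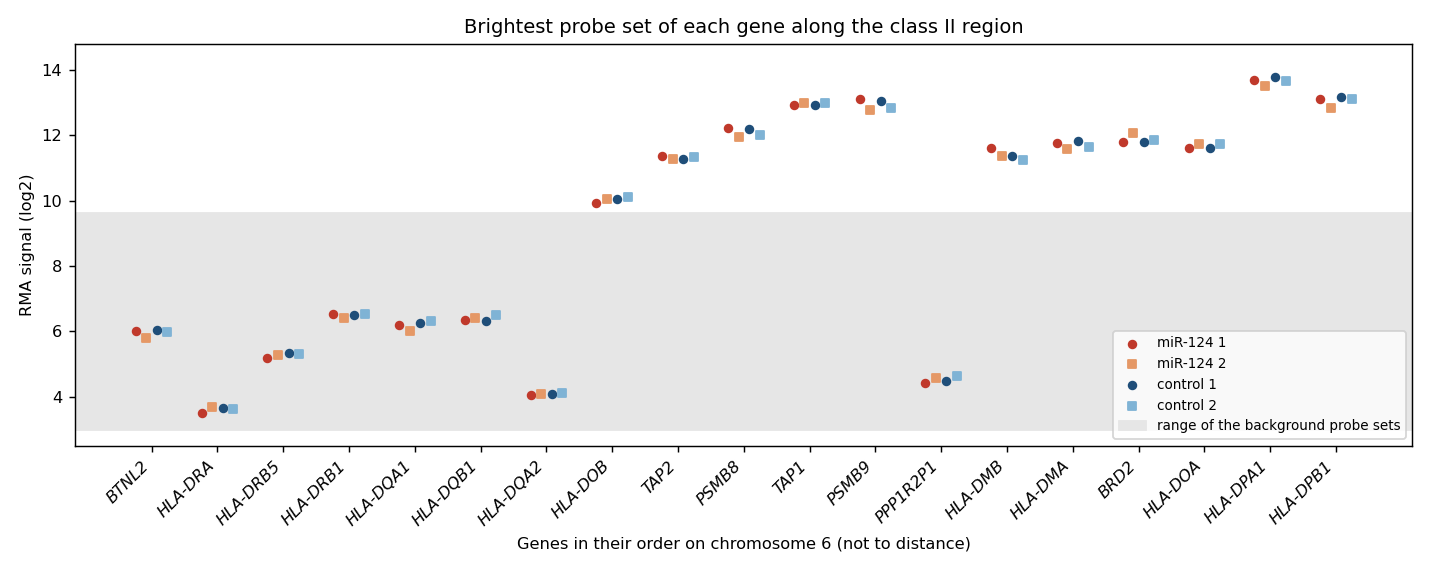
RMA signal (log2, vertical axis) of the brightest probe set of 19 genes in their order along the class II region of chromosome 6 (horizontal axis, not to distance), on the miR-124 (red and orange) and control (blue) arrays, with the range of the background probe sets in gray. All 7 genes from BTNL2 to HLA-DQA2 lie in the gray range on all 4 arrays, and those from HLA-DOB onward lie above it, except PPP1R2P1.

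Among the genes without signal above the background, HLA-DRB1, a beta chain of HLA-DR, had signals of 6.53 and 6.39 in miR-124 cells, against 6.51 and 6.52 in control cells. HLA-DQA1, the alpha chain of HLA-DQ, had 6.2 and 6.0 in miR-124 cells, against 6.3 on both control arrays. In contrast, HLA-DOA, the alpha chain of the HLA-DM inhibitor HLA-DO, had 11.61 and 11.73 in miR-124 cells, against 11.60 and 11.73 in control cells. Its partner HLA-DOB had 9.94 and 10.06 in miR-124 cells, against 10.05 and 10.11 in control cells. The probe sets shared by several HLA-DRB genes also lay within the background, at 5.34 to 5.86 for those annotated to HLA-DRB5 with other DRB genes. The promoters of HLA-DRB1 and HLA-DQA1 printed above hold an X box and a Y box, as that of HLA-DOA does. The HLA-DRA promoter was not searched, and whether these boxes bear on the signals was not tested. HLA-DRB and HLA-DQ genes are highly polymorphic, and whether the probes match the alleles of SeAx was not tested.

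The cell type markers of the arrays were those of a T cell line in part. Among 9 T cell markers on the array, CD2, CD3D, CD3G and IL2RA (CD25) exceeded the background, whereas CD3E (mean of 5.54), CD4 (6.19), CD5, CD7 and LCK did not. Failing this strict cutoff does not show that a gene is absent, as its top comes from 1 probe set of extreme composition. Of the markers of cells that make class II constitutively, 0 of 5 B cell, 1 of 6 monocyte and macrophage and 1 of 6 dendritic cell markers exceeded it, namely CSF1R (mean of 10.1) and BATF3 (12.4). MS4A1, CD79A, CD14, LYZ and CD1C lay within the background range. The summed signals of the T cell list were 80.5 and 81.0 in miR-124 cells, against 80.3 and 80.5 in control cells, and those of the B cell list were 34.8 and 35.6 in miR-124 cells, against 35.6 and 36.1 in control cells. The monocyte list summed to 31.8 and 31.5 in miR-124 cells, against 31.6 and 31.5 in control cells, and the dendritic cell list to 43.4 and 43.7 in miR-124 cells, against 43.3 and 43.7 in control cells. The conditions overlapped in these lists except that of B cells, where both miR-124 arrays lay slightly below both controls, and the part of these markers in any class II signal was not tested. Fewer cells with a transcript and less transcript per cell cannot be told apart in bulk RNA.

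The wider pathway was examined in 7 lists of textbook genes with 65 symbols in all. MARCHF1 and MARCHF8 appear in them under their former symbols as well. Of the 65, 55 had a single-symbol probe set and the others were not analysed here. On the brightest probe set of each gene, 31 were higher and 24 lower in miR-124 cells and 0 passed the threshold, against 0.153% of all genes. An unadjusted p under 0.05 (limma) was reached by 3 of the 55, against 741 of 18244 genes, namely IRF1, NFYC and AP1S1, all with adjusted p of 0.875. Over all 191 probe sets of these genes, 1 passed the threshold, against 0.185% of all probe sets.

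Of 9 genes for factors that act on the class II promoter or on CIITA, 5 exceeded the background on all 4 arrays, namely RFX5, RFXANK, CREB1, NFYC and PRDM1. RFXAP (mean of 8.33), NFYB (8.66) and ZXDC (8.53), the first 2 being subunits of RFX and NF-Y, did so on none, and NFYA on 1. RFX5, the DNA-binding subunit of RFX, had signals of 12.23 and 12.13 in miR-124 cells, against 12.29 and 12.15 in control cells, with overlap. CREB1, which binds the X2 box, had 10.90 and 10.94 in miR-124 cells, against 10.83 and 10.77 in control cells. Its arrays did not overlap, but the difference of 0.12 did not pass the test (limma, unadjusted p = 0.22).

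NFYC, a subunit of the Y box factor NF-Y, had signals of 10.71 and 10.78 in miR-124 cells, against 10.42 and 10.52 in control cells, also without overlap. The difference of 0.27 (interval 0.03 to 0.51) was 1.20-fold (limma, unadjusted p = 0.036) and stayed short of the fold threshold. Of its 7 probe sets, 4 had an unadjusted p under 0.05 (limma), all higher in miR-124 cells, against 4.73% of all probe sets. These probe sets read the same transcripts and are not separate measurements. Over the 9 genes of this list, 5 were higher and 4 lower, with a median difference of 0.03, and 0 passed the threshold.

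Among genes of the interferon gamma signal that induces CIITA, IRF1 had the largest difference on a brightest probe set of any listed gene. IRF1, a transcription factor induced by interferon gamma that acts on the CIITA promoter, had signals of 10.87 and 10.79 in miR-124 cells, against 10.43 and 10.49 in control cells. The conditions did not overlap, and the difference was 0.37 (standard error 0.09, interval 0.13 to 0.60), or 1.29-fold (limma, unadjusted p = 0.011), below the fold threshold. Another IRF1 probe set, within the background range, had 8.55 and 8.42 in miR-124 cells, against 8.13 and 7.99 in control cells, a difference of 0.42 (limma, unadjusted p = 0.011). On its remaining probe sets the differences were 0.19 and -0.18. JAK1, a kinase of the receptor, had 11.13 and 11.09 in miR-124 cells, against 11.25 and 11.26 in control cells, a difference of -0.14 that did not pass the test. SOCS1, an inhibitor of this signal, had 10.34 and 10.58 in miR-124 cells, against 10.19 and 10.42 in control cells, with overlap. Of the 9 genes on this list, 6 were higher and 3 lower, with a median difference of 0.06, and 0 passed the threshold.

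The class I heavy chains were nearly level. HLA-B had signals of 12.63 and 12.60 in miR-124 cells, against 12.70 and 12.60 in control cells. HLA-C had 12.50 and 12.48 in miR-124 cells, against 12.46 and 12.48 in control cells. HLA-E, a ligand of NK cell receptors, had 11.64 and 11.83 in miR-124 cells, against 11.63 and 11.80 in control cells. The differences of these 3 genes lay between -0.03 and 0.02. Of the 6 class I genes on the list, including the activator NLRC5, 4 were higher and 2 lower in miR-124 cells, with a median of 0.02. Whether probes of 1 class I gene also bind transcripts of another was not tested.

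Chaperones that load class I molecules also differed little. CANX (calnexin) had signals of 13.32 and 13.21 in miR-124 cells, against 13.35 and 13.33 in control cells. PDIA3, a disulfide isomerase of the loading complex, had 13.30 and 13.24 in miR-124 cells, against 13.27 and 13.24 in control cells. CALR (calreticulin) had 13.26 and 13.27 in miR-124 cells, against 13.09 and 13.16 in control cells. The CALR arrays did not overlap, with a difference of 0.14 (limma, unadjusted p = 0.17). The 7 genes of that list had a median difference of 0.02, with 4 higher and 3 lower.

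All 8 proteasome genes, which supply the peptides, exceeded the background, with 5 higher and 3 lower in miR-124 cells and a median difference of 0.00. PSMB9, an immunoproteasome subunit encoded beside TAP1, had signals of 13.12 and 12.77 in miR-124 cells, against 13.06 and 12.82 in control cells. PSME1, a subunit of the proteasome activator, had 12.88 and 12.96 in miR-124 cells, against 12.92 on both control arrays. PSMB6, a constitutive subunit, had 12.79 and 12.80 in miR-124 cells, against 12.56 and 12.67 in control cells. PSMB6 thus did not overlap between the conditions, with a difference of 0.18 (limma, unadjusted p = 0.11).

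The only probe set of the 7 lists past the threshold belonged to ERAP1, the aminopeptidase that trims class I peptides. It had signals of 5.95 and 5.57 in miR-124 cells, against 6.52 and 6.44 in control cells, a 1.65-fold lower signal (difference -0.72, standard error 0.15, limma, unadjusted p = 0.0067, adjusted p = 0.875). These signals lay within the range of the background probe sets. The 3 ERAP1 probe sets above the background had differences of -0.08, -0.14 and -0.07, and the brightest had 10.92 and 10.77 in miR-124 cells, against 10.86 and 10.98 in control cells.

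For class II processing and turnover, 9 of 13 listed symbols had a single-symbol probe set, 6 higher and 3 lower in miR-124 cells, with a median difference of 0.21. SPPL2A, the protease that clears the CD74 remnant, had signals of 12.35 and 12.24 in miR-124 cells, against 12.45 and 12.32 in control cells. CD63, a tetraspanin of late endosomes, had 11.91 and 12.51 in miR-124 cells, against 12.05 and 12.40 in control cells. CTSB, a cathepsin, had 11.06 and 11.20 in miR-124 cells, against 10.91 and 11.24 in control cells. The conditions overlapped in all 3, and their differences lay between -0.09 and 0.05. The higher median came from genes mostly within the background range, with differences of 0.33 for the protease LGMN, 0.28 for the adaptor subunit AP1S1 (limma, unadjusted p = 0.038), 0.27 for the cathepsin CTSD, 0.25 for the thiol reductase IFI30 and 0.21 for CTSL, and CTSD exceeded the background on 3 arrays. CTSS, the main protease of the invariant chain in professional antigen-presenting cells, lay within the background at 5.44 and 5.43 in miR-124 cells, against 5.52 and 5.63 in control cells, as did CTSL.

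Most member probe sets were lower on array 2 than on array 1 in both conditions. The labels number the arrays 1 and 2 within each condition, and no source says what the number stands for. This held for 34 of the 50 (68.0%), against 31.6% of all probe sets, and in 4 (8.0%) it was higher in both, against 33.6%. The median difference of array 2 minus array 1 was -0.15 in miR-124 cells and -0.07 in control cells, against 0.01 and 0.00 over all probe sets. Array 2 was lower in both conditions in all probe sets of CIITA, CD74, HLA-DPA1 and HLA-DMA, in 4 of 5 of HLA-DMB, in 8 of 13 of HLA-DPB1 and in 6 of 8 of B2M. Both TAP1 probe sets and 2 of the 4 TAP2 probe sets were instead higher on array 2 in both conditions. None of the 50 differed by 1.5-fold between the numbers in both conditions, and since probe sets of 1 gene share transcripts, these counts are a description with no test.

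**Figure D4:**
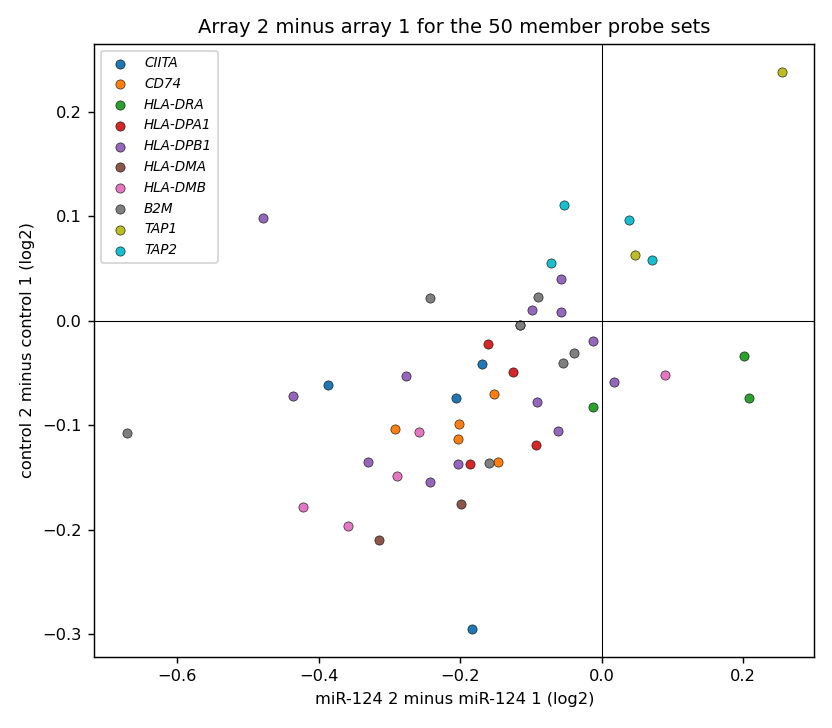
Difference between array 2 and array 1 (log2) for the 50 member probe sets, in miR-124 cells (horizontal axis) and in control cells (vertical axis), colored by gene. Of the 50 points, 34 lie in the lower left quadrant, where array 2 is lower in both conditions, and the 4 in the upper right belong to TAP1 and TAP2.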

How the data were processed

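Gene expression of SeAx cells was measured on 4 PrimeView arrays, 2 labelled miR124 and 2 labelled Control. The values deposited by the authors are log2 signals per probe set, summarized by RMA after background correction and quantile normalization, which hides any change in total RNA content. The methods name Agilent arrays in 1 paragraph and Affymetrix arrays in another, and the labels name Affymetrix. RMA and limma appear, without versions, in the submitters' processing notes. Of 49495 probe sets, 202 array controls were left out and 49293 were tested by lmFit and eBayes of limma 3.58.1 (R 4.3.3) with condition as the only term, with 2 residual degrees of freedom and 2.56 from the prior. The p-values are unadjusted unless named. Of the tested probe sets, 45278 had 1 gene symbol, 1333 several and 2682 none. The fit was tested on simulated data with known fold changes and noise drawn independently for each array. That setting does not cover the shared deviation of same-numbered arrays described below.

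Genes were named by a rule that took every member on its probe sets and, from each pathway list, genes with a probe set past the threshold and the 3 genes of highest mean. AP1S1, CTSS, CTSL, CTSD, LGMN, IFI30, RFXANK, RFXAP, NFYA, NFYB, ZXDC, PRDM1 and the genes of the chromosomal order lie outside it and were chosen after their values were seen. The members and lists were chosen with earlier results of these data known. The array background was taken from 23 background probe sets. The alternatives tried were the array number as a block, omission of each array in turn, cyclic loess, array weights, a prior with trend and robust fitting, omission of dim probe sets, gene means, and the addition of probe sets of several symbols.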

Additional observations from a re-analysis of the deposited data

How the results depend on the processing

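No member probe set passed the threshold (unadjusted p under 0.05 and over 1.5-fold, limma) under the replicate block, cyclic loess, array weights, the prior with trend and robust fitting, the filter on dim probe sets, gene means, or with probe sets of several symbols. The block, the weights, the prior and the filter left the member differences at their values, within -0.47 to 0.27 and short of 1.5-fold. They could therefore not have called a member, whatever the p. Means of such differences over a gene could not either, and the added probe sets of several symbols differed by 0.14 and 0.06. Of these settings, only cyclic loess could have given a call. Leaving out 1 array gave 0 to 2 member calls, the 2 without miR-124 array 1 (B2M and HLA-DPB1), and 0 to 1 listed genes, JAK2 (0.72), also without miR-124 array 1. The lone array is then assumed to vary like the other condition, and calls over all probe sets in that setting numbered 1078, against 91 with all arrays, 203 without miR-124 array 2 and 309 without control array 2.

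Same-numbered arrays deviated together (correlation of 0.64), but with 2 pairs the number is not taken as a pairing. The replicate block called 167 of all probe sets, against 91 without it, and it changed no other call named here. It called 0 of the members, as their unchanged differences, all short of 1.5-fold, made certain. Of 127 values recomputed under these alternatives, 115 kept their direction and their side of the threshold or stayed within the spread. The block, the weights, the prior and the filter could not turn the direction of a single probe set. This count therefore overstates how stable the differences are. Signs close to 0 turned round. Leaving out arrays gave differences of -0.16 to 0.0357 for the brightest HLA-DMA probe set, -0.15 to 0.0505 for HLA-DRA, -0.0317 to 0.0315 for TAP1 and -0.0331 to 0.0391 for TAP2, and cyclic loess gave 0.0233 for TAP1 and -0.00201 for TAP2. For other brightest probe sets the sign held while the size moved, from 0.07 to 0.24 for CIITA, 0.05 to 0.19 for CD74, -0.21 to -0.02 for HLA-DPA1, -0.32 to -0.04 for HLA-DPB1, 0.04 to 0.30 for HLA-DMB and -0.17 to -0.08 for B2M. Of these, HLA-DPB1 had an unadjusted p of 0.043 (limma) without miR-124 array 1, short of the fold threshold. The dim ERAP1 probe set fell short of the fold threshold without miR-124 array 2 (-0.53). The member median stayed within -0.05 to 0.02 with arrays left out. Signals within the range of the background probe sets, as for HLA-DRA, limit what can be read of those genes.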

Other observations

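IFNG, the gene of interferon gamma, lies outside the rule for named genes and was chosen after its values were seen. Its only probe set had signals of 4.42 and 7.72 in miR-124 cells, against 5.28 and 7.58 in control cells. Array 2 exceeded array 1 by 3.29 in miR-124 cells and by 2.30 in control cells, while the conditions overlapped and differed by -0.36 (standard error 1.33, limma, unadjusted p = 0.80). All 4 values lie within the range of the background probe sets, and no source used here says what the array number stands for. PRDM1, which encodes a repressor of CIITA, was also higher on array 2 in both conditions, by 0.90 in miR-124 cells and by 0.74 in control cells, and was likewise chosen after its values were seen. Whether these values bear on the lower signals of most class II members on array 2 was not tested.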
